A study of Mus musculus with 12 samples.

Results

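Apigenin and chrysin are plant flavones that share one ring skeleton and differ in a single group, a hydroxyl that apigenin carries on its B ring and chrysin does not. Their transcriptomes were set against each other in fibroblasts derived from mouse embryos, which are connective tissue cells, and passaged no further than the fifth time. Of the 12 RNA sequencing samples of the series, the 4 treated with apigenin and the 4 treated with chrysin, both at 50 µM for 24 h, formed the comparison, and the 4 samples kept in control medium gave the reference level. Genes entered when their mean normalized read count over the 12 samples was at least 10, which kept 12198 of the 24458 genes in the table and left out 12260. One pair of compounds was compared, at a matched dose and time. The labels do not say whether solvent was added to the control medium, what strain the embryos were, or whether the 4 samples of a group were separate cultures. The p-values therefore reflect the spread among these samples, and that spread may be technical.

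Flavones are small aromatic plant products that cells modify by conjugation with glucuronic acid, sulfate or glutathione and export through membrane pumps. Flavonoids are known as modulators of protein kinases, as ligands of the aryl hydrocarbon receptor and as mild electrophiles or pro-oxidants that release the transcription factor NRF2 from its inhibitor KEAP1. Cultured fibroblasts keep a strongly contractile state, in which actin assembly frees coactivators that switch on serum response factor (SRF) targets, while tension and TGF-beta signalling drive matrix genes.

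Depth ranged from 4298640 to 15512633 reads. Chrysin replicate 1 was sequenced to 12957316 reads, more deeply than the other chrysin libraries (4298640 to 5679354). A count of 0 allows up to 3 reads, which is 1.44 normalized counts at the highest depth and 6.24 at the lowest, for counting error only. Levels below are log2 of the normalized count plus 1, and differences are apigenin minus chrysin on that log2 scale, with the standard error (SE) of the limma fit over all 12 samples. The apigenin libraries divided into 2 pairs, replicates 1 and 3 and replicates 2 and 4. Over the genes tested, the root mean square log2 difference between libraries was 0.405 and 0.356 inside those pairs and 0.687 to 0.728 across them, against 0.501 to 0.612 among the chrysin libraries. Between an apigenin and a chrysin library it was 0.783 to 0.841 with chrysin replicate 1 and 0.926 to 1.04 with the other, shallower chrysin libraries. The part of depth in these distances was not tested. Nothing in the labels names what sets the pairs apart, so genes whose call turned on the pair, and lists in which the more numerous direction did, are given for each pair as well. The pairs were found in these same data, as the libraries closest to each other. A fit on 1 pair therefore has a smaller apigenin spread by selection. Its adjusted p-values tend to be too small, and its calls describe the pair rather than test it.

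On the deposited scaling, about as many genes were higher as were lower with apigenin. The median difference on that scaling was 0.01, and the balance depends on it. After median centring 2676 genes were higher and 3485 lower. Of the genes tested, 3011 (24.7%) were higher with apigenin and 3179 (26.1%) were lower at a limma adjusted p under 0.05, which is 50.7% in either direction. The fit pools the spread of the untreated and flavone libraries. The median SD of a gene was 0.151 untreated, against 0.242 with apigenin and 0.219 with chrysin. With the 8 flavone samples alone 5380 genes were called. The difference was at least 1 on the log2 scale for 1057 genes higher and 838 lower with apigenin, and at least 2 for 128 and 140. For 5006 genes (41%), the 4 apigenin and the 4 chrysin values did not overlap. Among these the untreated values lay between the flavones for 467 genes, above both for 396, below both for 417, and overlapped at least 1 flavone for 3726. The opposite statement could be made for fewer genes. The 95% interval of the difference lay within ±0.5 for 2392 genes (19.6%), of which 212 were still called. Of the 6008 genes not called, 3828 had an interval that reached beyond ±0.5, so these data do not show them to be alike. With only apigenin replicates 1 and 3 in the fit 6232 genes were called, and with only replicates 2 and 4 it was 6366, against 6190 with all libraries. Of the calls with each pair, 5062 and 5135 were also made in the same direction with all libraries. The higher counts go with the smaller spread inside pairs that were found by their closeness.

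**Figure D1:**
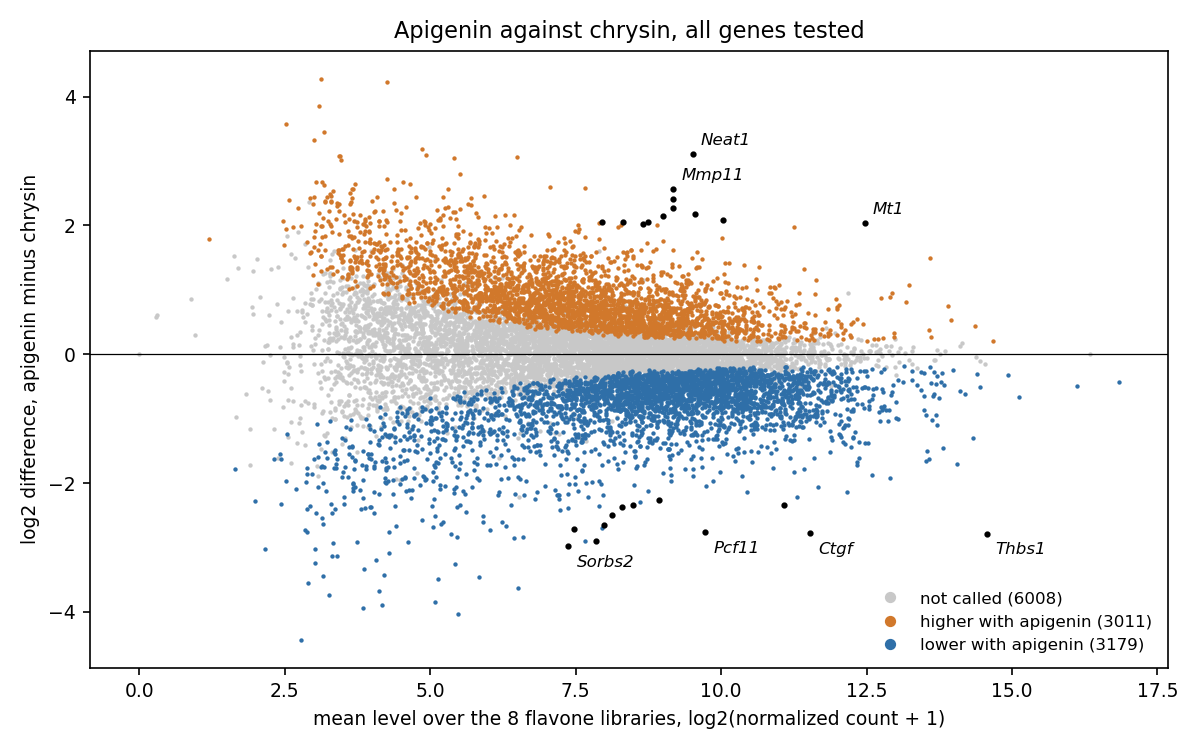
Difference between apigenin and chrysin (vertical axis, log2) against the mean level over the 8 flavone libraries (horizontal axis, log2 of the normalized count plus 1), one point per gene tested. Orange points are the 3011 genes higher and blue points the 3179 genes lower with apigenin. Grey points were not called, and black points are the 24 genes with the largest differences described in the text.

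Among abundant genes whose groups did not overlap, the 12 largest differences in each direction reached from 2.02 to 3.11 upward and from -2.27 to -2.98 downward. Neat1, the long non-coding RNA that builds nuclear paraspeckles, stood at 11.85, 10.33, 11.85 and 10.24 with apigenin and at 8.38, 7.71, 8.10 and 7.63 with chrysin. All apigenin values lay above all chrysin values, and the untreated mean was 11.61 ± 0.18 (SD, n = 4). The difference was 3.11 ± 0.38 (adjusted p = 5.95e-05), and it was 3.90 with only apigenin replicates 1 and 3 and 2.33 with only replicates 2 and 4. Dnm3os, another long non-coding RNA, read from the strand opposite to Dnm3, differed by 2.41 ± 0.39 (adjusted p = 0.000471), or by 3.15 with the first pair of apigenin libraries and 1.66 with the second. The strand setting of the counting is not given, so Dnm3os and its partner cannot be told apart.

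The remaining 10 genes of the higher side encode proteins. Mmp11, a stromelysin of the matrix metalloprotease family, had levels of 10.41, 10.38, 10.73 and 10.31 with apigenin and 8.15, 7.88, 7.92 and 7.60 with chrysin, with the untreated mean at 9.27 ± 0.18 (SD) between the flavones. Its difference of 2.57 ± 0.13 corresponds to 5.93-fold more with apigenin (adjusted p = 2.73e-10). Itgb3, the beta subunit of the vitronectin receptor, differed by 2.27 ± 0.31, and its level rose against untreated cells with apigenin (2.77, adjusted p = 1.74e-05) but was not called with chrysin (0.50, adjusted p = 0.199). Sox4, a developmental transcription factor, and Plat, tissue plasminogen activator, were above untreated cells with apigenin and below them with chrysin, with differences between the flavones of 2.18 ± 0.16 and 2.02 ± 0.11. Emilin1, an elastic fibre glycoprotein, and Nfatc4, a calcineurin-dependent transcription factor, differed by 2.06 ± 0.20 and 2.05 ± 0.15. Both were called lower than untreated with chrysin (-2.29 and -2.37) and not with apigenin (-0.23 and -0.32). Tmem140, a membrane protein, Slc25a23, a mitochondrial carrier, the glutathione transferase Gstm1 and the metallothionein Mt1 completed the 12, at 2.04 to 2.14. Gstm1 has close relatives, and the treatment of reads they share is not given.

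The most abundant gene of the lower side was Thbs1, which encodes the matrix glycoprotein thrombospondin. It had levels of 13.37, 13.04, 13.25 and 13.03 with apigenin and 15.93, 16.04, 15.71 and 16.14 with chrysin. The groups lay far apart with little spread, both below the untreated mean of 16.61 ± 0.11 (SD), and the difference was -2.78 ± 0.10 (adjusted p = 5.24e-12). Ctgf, connective tissue growth factor, differed by -2.78 ± 0.18 and Sorbs2, an adaptor that links actin to adhesion sites, by -2.98 ± 0.17, and neither was called against untreated cells with chrysin (0.25 and -0.38, adjusted p = 0.247 and adjusted p = 0.0662). Pcf11, a factor that cleaves nascent transcripts at the poly(A) site and ends transcription, went the other way relative to untreated cells. It stood at 8.24, 8.57, 8.12 and 8.46 with apigenin and at 11.00, 11.25, 10.95 and 11.20 with chrysin, against 8.50 ± 0.18 (SD) untreated. The chrysin libraries alone were high, and the difference was -2.76 ± 0.12 (adjusted p = 8.58e-11).

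The rest of the lower side held Il1rn (-2.71 ± 0.19), the interleukin 1 receptor antagonist, Nr4a1 (-2.27 ± 0.17), an orphan nuclear receptor of the immediate early class, Rgs4 (-2.37 ± 0.39, or -1.53 and -3.21 with either pair of apigenin libraries), which shortens G protein signalling, Cemip (-2.34 ± 0.31), which takes part in hyaluronan breakdown, and Fhl1 (-2.35 ± 0.11), a LIM domain protein of the actin cytoskeleton. Aldh1a7, an aldehyde dehydrogenase with a close relative, differed by -2.65 ± 0.40. The choline transporter Slc5a7 and the placental hormone relative Prl2c2 rested on 1 pair of apigenin libraries. Slc5a7 differed by -2.90 ± 0.79 (adjusted p = 0.0121) over all libraries, by -4.38 with only apigenin replicates 1 and 3 and by -1.43 (adjusted p = 0.0695) with only replicates 2 and 4. Prl2c2, one of several near-identical copies, had levels of 5.20, 8.56, 5.12 and 8.65 with apigenin and 9.20 to 9.49 with chrysin. Its difference of -2.50 ± 0.92 (adjusted p = 0.0464) became -0.77 (adjusted p = 0.366) with only replicates 2 and 4. It was also no longer called without apigenin replicate 1 or 3, without any single chrysin library or without untreated replicate 2, 3 or 4, at adjusted p = 0.0544 to 0.12.

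**Figure D2:**
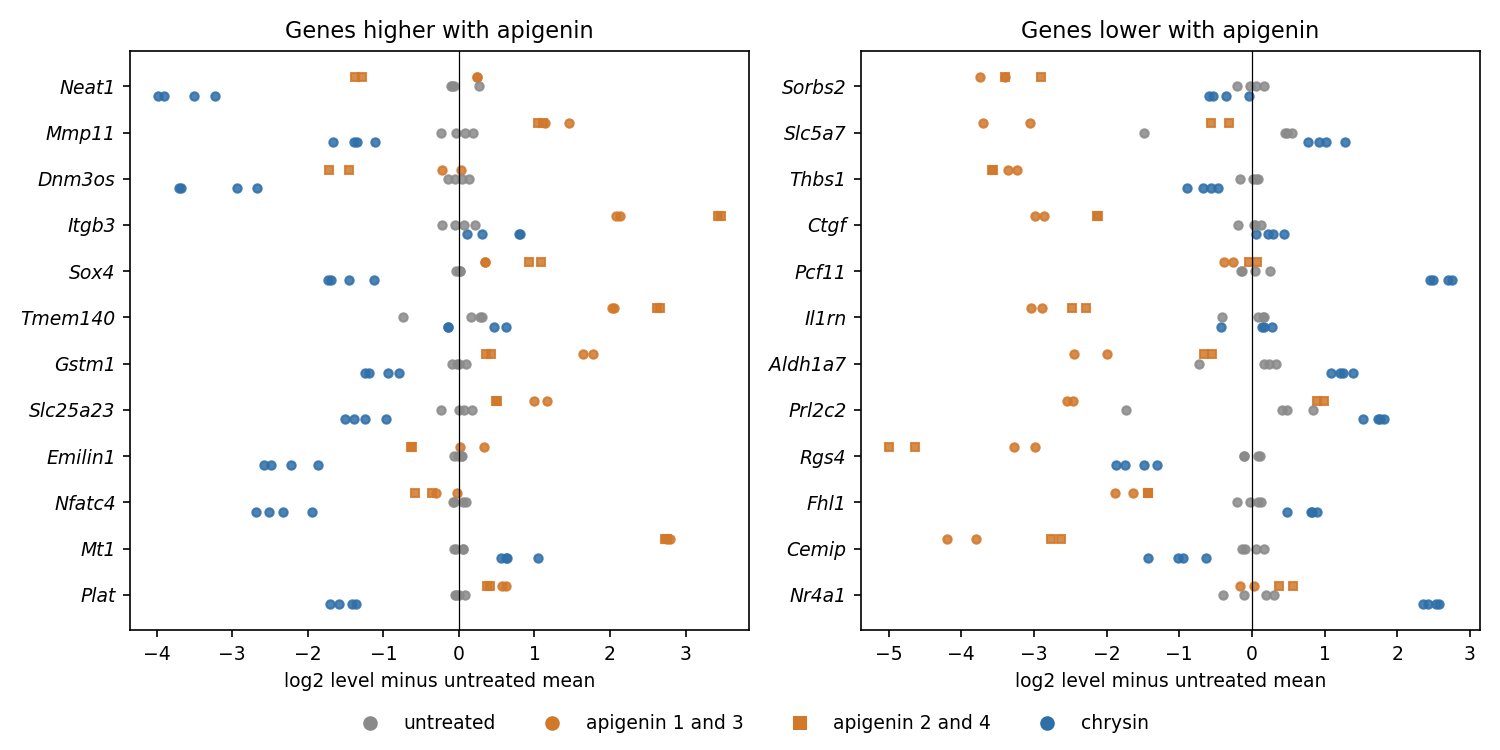
Level of the 12 genes with the largest difference in each direction in every library, as log2 distance from the untreated mean (horizontal axis, 0 is the untreated mean). Grey points are untreated, orange circles apigenin replicates 1 and 3, orange squares apigenin replicates 2 and 4, and blue points chrysin libraries. Pcf11 and Nr4a1 leave the untreated level with chrysin, while Neat1 and Emilin1 drop furthest with chrysin and Thbs1 and Ctgf drop furthest with apigenin. Neat1 also lies below the untreated mean in apigenin replicates 2 and 4.

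Genes of the contractile apparatus were lower with apigenin almost throughout. Of 26 contractile, actin and SRF target genes tested, 24 were lower with apigenin, none was higher, and the median difference was -1.09 against 0.01 over all genes tested. The mean level of the list was 10.66 to 10.70 in the 4 apigenin libraries, 11.68 to 11.79 in the chrysin libraries and 11.56 to 11.64 untreated. The list did not follow the division of the apigenin libraries: 23 genes were lower and 1 higher with only replicates 1 and 3, and 24 lower with only replicates 2 and 4. Each flavone was also compared with the untreated libraries, which both comparisons share. There 21 of the 26 genes were lower and none higher with apigenin (23.2% and 23% of all genes), and 13 were higher and 6 lower with chrysin (26.3% and 26.7%).

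Acta2, smooth muscle alpha actin and the usual marker of contractile fibroblasts, stood at 13.03, 13.19, 13.07 and 13.09 with apigenin and at 14.51, 14.54, 14.55 and 14.60 with chrysin, with the untreated mean of 13.86 ± 0.13 (SD) between them. The groups did not overlap and the difference was -1.46 ± 0.07, or 2.74-fold more with chrysin (adjusted p = 1.76e-10). Tropomyosin Tpm1 (-1.66 ± 0.07), vinculin Vcl (-1.68 ± 0.08), which ties actin to integrin adhesions, and Fhl1 showed the same order, apigenin below untreated and chrysin above. Srf itself, which encodes the transcription factor, had levels of 8.48, 8.58, 8.32 and 8.69 with apigenin and 9.75, 9.77, 9.70 and 9.77 with chrysin. It too lay on both sides of the untreated mean of 8.88 ± 0.10 (SD), with a difference of -1.23 ± 0.10 (adjusted p = 6.4e-08). Lmod1 and Myh11, smooth muscle genes for an actin nucleator and a myosin, differed by -2.02 ± 0.22 and -1.98 ± 0.18. The 2 members not called were Pdlim7 (-0.05, 95% interval -0.26 to 0.16), an actin-binding adaptor, and Mkl1 (0.24, 95% interval -0.05 to 0.54), which encodes an actin-sensing SRF coactivator. Mkl1 was called higher with only apigenin replicates 1 and 3 (0.50, adjusted p = 0.0019) and not with only replicates 2 and 4 (-0.01, adjusted p = 0.937). Tagln, transgelin, differed by -0.41 ± 0.09 and was not called after quantile normalization (-0.14, adjusted p = 0.258).

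SRF binds the CArG box, which gives part of the list its name. Shown are the promoters of Vcl, Fhl1 and Srf, the members with a box whose values are given above, chosen after those values were seen. They come from RefSeq (GRCm38.p6, a later assembly than that of the expression table) and are 300 bases long, spanning the gene's start. The box was searched by its name's usual form on both strands, and capitals mark it. Of 21 members with a promoter in the table, 7 held a box (Actg1, Cnn2, Fhl1, Fhl2, Myl9, Srf and Vcl), all of them among the 19 called lower, while 1.81% of the 27025 genes with a promoter held one. The list was made up of SRF targets among others, so a share of boxes above that of all genes was built into it. As 19 of the 21 were called lower, the place of the 7 among them says little. A match is a description of the letters, not a bound site.
Vcl, chr14:20929148-20929447, plus strand: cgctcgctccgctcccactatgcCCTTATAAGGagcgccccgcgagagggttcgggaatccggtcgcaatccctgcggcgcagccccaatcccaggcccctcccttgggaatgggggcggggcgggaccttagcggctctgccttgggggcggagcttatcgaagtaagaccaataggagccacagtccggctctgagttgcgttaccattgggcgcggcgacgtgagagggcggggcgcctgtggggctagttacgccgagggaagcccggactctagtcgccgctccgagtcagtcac
Fhl1, chrX:56779433-56779732, plus strand: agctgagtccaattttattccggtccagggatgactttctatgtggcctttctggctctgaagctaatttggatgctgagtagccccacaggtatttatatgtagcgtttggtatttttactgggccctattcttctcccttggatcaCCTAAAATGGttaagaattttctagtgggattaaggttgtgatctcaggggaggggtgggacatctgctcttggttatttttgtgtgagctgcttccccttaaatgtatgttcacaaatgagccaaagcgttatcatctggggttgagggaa
Srf, chr17:46556113-46556412, minus strand: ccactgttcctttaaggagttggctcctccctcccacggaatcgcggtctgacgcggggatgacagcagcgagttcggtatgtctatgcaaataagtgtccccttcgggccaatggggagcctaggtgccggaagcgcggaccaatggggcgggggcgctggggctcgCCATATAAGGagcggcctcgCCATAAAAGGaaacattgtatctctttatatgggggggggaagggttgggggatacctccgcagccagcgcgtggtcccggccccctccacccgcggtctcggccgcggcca

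Genes tied to tension and TGF-beta signalling moved in both directions. Of 22 YAP and TGF-beta target and pathway genes tested, 10 were lower and 4 higher with apigenin (median -0.50), with 10 and 7 after quantile normalization. Besides Thbs1 and Ctgf, the muscle ankyrin repeat gene Ankrd1 was lower with apigenin (-2.67 ± 0.40). Cyr61, another YAP target, went the other way (0.73 ± 0.14, adjusted p = 0.000495), and so did the ligand gene Tgfb1 (1.21 ± 0.12, adjusted p = 3.59e-07), while the signal transducer Smad3 was lower with apigenin (-0.66 ± 0.10). The coactivator genes themselves were not called. Wwtr1, which encodes TAZ, differed by 0.06 (95% interval -0.13 to 0.24) and Yap1 by -0.02 (-0.19 to 0.15), with Yap1 called higher after quantile normalization (0.21, adjusted p = 0.0239).

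Many matrix genes were lower than in untreated cells with both flavones, and a share of them was lower still with apigenin. Of 35 collagens and structural matrix genes, 18 were lower and 3 higher with apigenin than with chrysin (median -0.32). Against untreated cells 30 were lower with apigenin and 26 with chrysin (23.2% and 26.7% of all genes). Col8a1, a short-chain collagen, had levels of 10.01, 9.99, 10.06 and 9.95 with apigenin and 11.64, 11.91, 11.64 and 11.91 with chrysin, against 12.31 ± 0.03 (SD) untreated. All 3 groups stood apart, and the difference between the flavones was -1.77 ± 0.08 (adjusted p = 8.58e-11). Tnc, tenascin C (-1.60 ± 0.12), the fibrillar collagen Col11a1 (-1.03 ± 0.08) and the crosslinking enzyme Lox (-0.95 ± 0.08) were also lower with apigenin. The major fibrillar collagens were not among them. Col1a1 stood at 14.39, 14.00, 14.35 and 13.93 with apigenin and at 13.91 to 14.22 with chrysin, and differed by 0.12 (95% interval -0.09 to 0.34), while Col1a2 differed by 0.06 (-0.13 to 0.25). With only apigenin replicates 1 and 3, however, both were called higher with apigenin (0.32, adjusted p = 0.00437, and 0.25, adjusted p = 0.0087), and with only replicates 2 and 4 neither was called (-0.08 and -0.13, adjusted p = 0.452 and adjusted p = 0.132). The groups overlapped for both genes, and both lay more than 1 below untreated cells with either flavone. The counts of matrix genes depended on the scaling and on the apigenin libraries. After quantile normalization 12 were lower and 9 higher (median -0.09). With only replicates 1 and 3 it was 16 lower and 10 higher, with only replicates 2 and 4 it was 22 and 3, and 5 were higher without replicate 2 or without replicate 4.

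Enzymes that cut the matrix and their inhibitors were split. Among 19 matrix proteases, plasminogen activators and their inhibitors, 9 were lower and 5 higher with apigenin. Timp3, a metalloprotease inhibitor held in the matrix, differed by -1.88 ± 0.10, and the secreted protease Adamts1 by -1.62 ± 0.09. The 2 plasminogen activators differed in opposite directions. Plau, urokinase, stood at 6.27, 8.53, 6.67 and 8.47 with apigenin and at 9.45 to 9.61 with chrysin, against 6.93 ± 0.15 (SD) untreated, a difference of -2.03 ± 0.45 (adjusted p = 0.00303), while Plat was higher with apigenin. The collagenase gene Mmp13, like Plau, was called above untreated cells with chrysin (2.25, adjusted p = 4.27e-05) and not with apigenin (0.11, adjusted p = 0.808). The apigenin mean covers pairs that differed for both genes. Plau lay above the untreated mean in apigenin replicates 2 and 4 and below it in replicates 1 and 3. Mmp13 differed from chrysin by -2.77 with only replicates 1 and 3 and by -1.51 with only replicates 2 and 4. Among 15 integrin subunits 4 were higher and 5 lower with apigenin, near the shares over all genes. With only apigenin replicates 1 and 3 it was 3 higher and 10 lower (median -0.71), and with only replicates 2 and 4 it was 5 higher and 4 lower (median 0.27). The common beta subunit Itgb1 was lower (-0.62 ± 0.08) and Itgb5 higher (0.70 ± 0.08) with apigenin.

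Targets of NRF2 rose above untreated cells with either flavone, and further with apigenin. Of 25 genes on the list, 17 were higher and 2 lower with apigenin than with chrysin (median 0.69). Against untreated cells 21 rose with apigenin and 17 with chrysin (23% and 26.3% of all genes). The list mean was 11.20, 10.93, 11.27 and 10.89 in the apigenin libraries and 10.43 to 10.52 in the chrysin libraries, against 9.55 to 9.61 untreated. Hmox1, heme oxygenase, stood at 13.70, 13.78, 13.88 and 13.68 with apigenin and at 12.84, 12.68, 12.64 and 12.60 with chrysin, over an untreated mean of 10.22 ± 0.11 (SD). The 3 groups did not overlap, and apigenin gave 2.10-fold more than chrysin (1.07 ± 0.08, adjusted p = 2.48e-08). Srxn1, sulfiredoxin, which repairs oxidised peroxiredoxins, differed by 1.32 ± 0.09 and the autophagy receptor gene Sqstm1 by 0.89 ± 0.10. Ftl1, the ferritin light chain, differed by 1.49 ± 0.13, with the reservation that it has many processed copies in the genome.

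Not all NRF2 targets took part in the difference. Gclm, the modifier subunit of the enzyme that makes the glutathione precursor, stood at 10.34 to 10.78 with apigenin and 10.34 to 10.85 with chrysin, against 8.38 ± 0.05 (SD) untreated. Its difference was 0.03 (95% interval -0.23 to 0.29), so any difference between the flavones was small beside the rise of 2.17 and 2.15 that each gave against untreated cells. Slc7a11, the cystine transporter, rose by 3.94 with apigenin and 3.52 with chrysin against untreated and differed between them by 0.42 ± 0.11 (adjusted p = 0.00385), but not at the threshold with only apigenin replicates 2 and 4 (0.26, adjusted p = 0.0648). Nqo1, a quinone reductase, followed the pairs, with levels of 10.41, 8.96, 10.62 and 8.92 with apigenin and 8.32 to 8.72 with chrysin (1.21 ± 0.34, adjusted p = 0.0116). Malic enzyme Me1 was lower with apigenin (-0.61 ± 0.08).

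The antioxidant response element, the site of NRF2, was searched as TGACNNNGC on both strands of the same RefSeq promoters. It was in 8 of 19 listed genes with a promoter and in 5 of the 13 called higher with apigenin, against 14% of all genes with one. The list was made up of NRF2 targets, so a share above that of all genes was built into it. The promoter of Srxn1 is shown as that of a member with a large difference, with the match to these letters in capitals. Forms of the element with G in place of the first C were not searched and stay in lower case. The capitals do not mark a bound site.
Srxn1, chr2:152105274-152105573, plus strand: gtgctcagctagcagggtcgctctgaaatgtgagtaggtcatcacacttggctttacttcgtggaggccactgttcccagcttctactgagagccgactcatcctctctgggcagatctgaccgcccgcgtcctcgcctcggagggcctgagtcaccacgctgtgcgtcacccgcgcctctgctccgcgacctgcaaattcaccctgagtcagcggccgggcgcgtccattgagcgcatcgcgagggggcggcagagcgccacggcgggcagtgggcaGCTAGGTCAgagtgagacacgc

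Genes that handle flavonoids themselves also differed. Of 20 flavonoid conjugation and efflux genes tested, 9 were higher and 4 lower with apigenin (median 0.59), and the 4 became 2 without apigenin replicate 2 or 4 or chrysin replicate 1 or 4. Mgst1, a microsomal glutathione transferase, differed by 1.48 ± 0.12 and the efflux pump gene Abcc4 by 0.82 ± 0.14. Abcg2, a pump that exports many drugs and flavonoids, was lower with apigenin (-1.30 ± 0.14), with levels of 8.16, 8.18, 7.74 and 8.30 against 9.25, 9.46, 9.19 and 9.69 with chrysin. Gstt1, a theta class glutathione transferase, was near the detection limit with chrysin (3.33, 2.37, 0 and 2.12) and at 4.53 to 5.37 with apigenin, a difference of 3.01 ± 0.54 (adjusted p = 0.000207).

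Few targets of the aryl hydrocarbon receptor could be read. Cyp1a1, its classic target, had 0 to 3 reads in every library and was not tested. Of 8 genes of the pathway tested, 4 were higher and 2 lower with apigenin, with 5 and 1 using only apigenin replicates 1 and 3 and 3 and 3 using only replicates 2 and 4. Cyp1b1 had levels of 12.04, 10.39, 11.87 and 10.43 with apigenin and 10.02, 10.02, 10.01 and 9.96 with chrysin, against 11.74 ± 0.06 (SD) untreated. Replicates 1 and 3 lay near untreated cells and replicates 2 and 4 near chrysin, and the difference over all libraries was 1.18 ± 0.34 (adjusted p = 0.0147). It was 1.95 with only the first of these pairs and 0.41 with only the second, and with array weights it was 0.70 and no longer called (adjusted p = 0.0579). The receptor gene Ahr was higher with apigenin than with chrysin (1.03 ± 0.23, adjusted p = 0.00122), both being below untreated cells, and the feedback gene Tiparp was lower (-0.48 ± 0.12).

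The metallothioneins separated the flavones with very little spread. Mt1 stood at 13.49, 13.48, 13.52 and 13.46 with apigenin and at 11.37, 11.29, 11.78 and 11.35 with chrysin, against 10.73 ± 0.06 (SD) untreated. The difference of 2.04 ± 0.09 was 4.12-fold (adjusted p = 8.58e-11), and Mt2, which encodes a second metal-binding protein of this class, differed by 1.98 ± 0.12, or 3.94-fold. Their pattern was not that of the rest of the list. Of the other 8 genes of zinc handling, 6 were lower with apigenin and none was higher, and after quantile normalization the whole list held 3 higher and 5 lower. These include Mtf1, the metal-sensing factor that switches metallothioneins on (-0.87 ± 0.12), the zinc exporter Slc30a1 (-0.91 ± 0.22) and the importer Slc39a10 (-0.77 ± 0.13). Slc30a1, also a target of that factor, was above untreated cells with both flavones, by 1.44 with apigenin and 2.35 with chrysin.

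**Figure D3:**
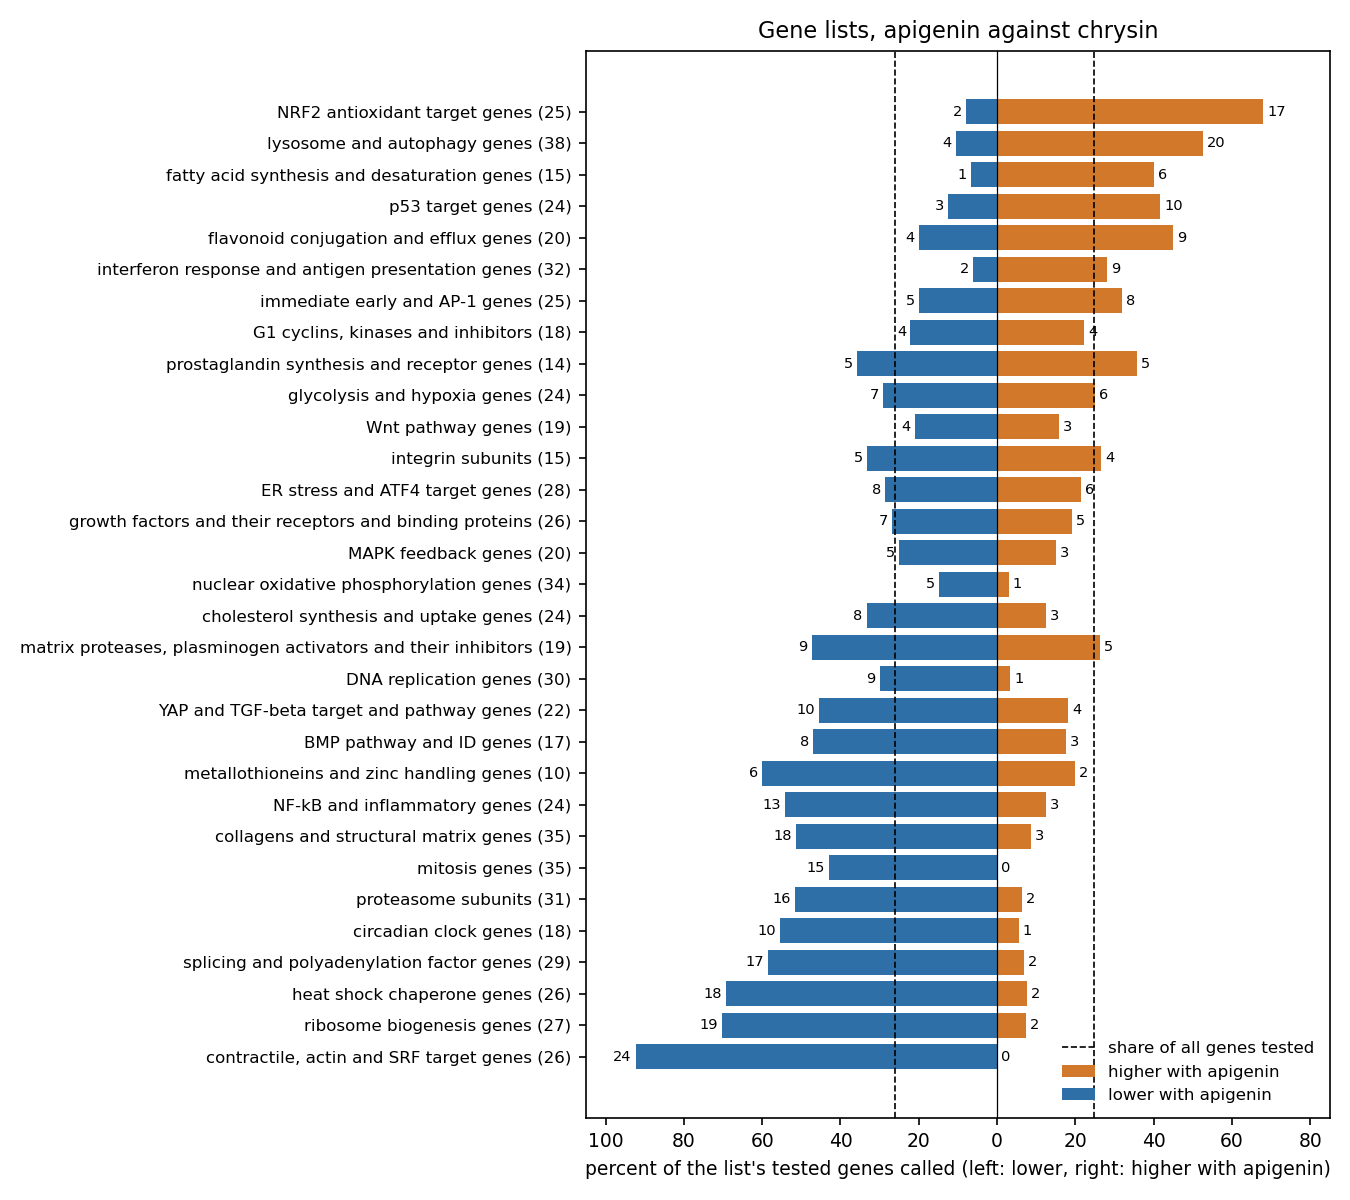
Share of each gene list called between the flavones (horizontal axis, percent of the list's tested genes), with genes lower with apigenin to the left in blue and higher to the right in orange. Numbers beside the bars are genes and those in brackets genes tested, and dashed lines mark the 26.1% lower and 24.7% higher of all genes. Lists with at least 10 genes tested are shown, from the NRF2 targets (17 of 25 higher) to the contractile genes (24 of 26 lower).

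Most genes of the circadian clock that differed were higher with chrysin. Of 18 clock genes tested, 10 were lower with apigenin and 1 was higher (median -0.75), while the list mean was 7.17 to 7.32 with apigenin, 7.85 to 8.05 with chrysin and 7.04 to 7.20 untreated. Per1, a repressor of the clock that also responds at once to many stimuli, stood at 7.99, 8.51, 7.83 and 8.30 with apigenin and at 10.13, 9.97, 10.17 and 10.22 with chrysin, against 8.02 ± 0.11 (SD) untreated. Apigenin libraries lay around the untreated level and chrysin libraries about 2 above it (-1.96 ± 0.13, adjusted p = 9.17e-09). Nr1d1, which encodes the nuclear receptor REV-ERB alpha, differed by -1.57 ± 0.13, Cry1 by -1.22 ± 0.21, Per2 by -1.75 ± 0.28 and the repressor Bhlhe41 by -1.16 ± 0.14. Ciart, a repressor of low abundance, had levels of 4.00, 3.54, 3.70 and 3.94 with apigenin and 7.29, 7.00, 7.17 and 6.76 with chrysin, a difference of -3.26 ± 0.26 (adjusted p = 4.33e-08). Arntl, the activator BMAL1, differed by 0.08 (95% interval -0.23 to 0.38). The 1 higher gene was Dbp, an output factor of the clock (1.34 ± 0.21, adjusted p = 6.57e-05), which was below untreated cells with chrysin (-1.22).

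The clock activators bind the E-box CACGTG, which was in 5 of the 16 listed genes with a RefSeq promoter (Bhlhe41, Ciart, Cry1, Per1 and Tef) and in 4 of the 9 called lower with apigenin, against 8.09% of all genes with one. Promoters of Per1 and Ciart are shown as those with the 2 largest differences, with the box in capitals. Ciart holds 3 boxes and Per1 holds 1. The list was made up of clock genes, so its share of boxes is a description and not a test.
Per1, chr11:69098699-69098998, plus strand: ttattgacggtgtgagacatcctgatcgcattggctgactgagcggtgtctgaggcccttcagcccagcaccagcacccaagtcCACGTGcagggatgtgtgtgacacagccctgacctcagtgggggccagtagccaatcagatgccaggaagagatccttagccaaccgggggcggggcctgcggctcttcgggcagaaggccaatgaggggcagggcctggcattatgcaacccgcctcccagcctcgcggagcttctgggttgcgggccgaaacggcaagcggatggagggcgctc
Ciart, chr3:95882179-95882478, minus strand: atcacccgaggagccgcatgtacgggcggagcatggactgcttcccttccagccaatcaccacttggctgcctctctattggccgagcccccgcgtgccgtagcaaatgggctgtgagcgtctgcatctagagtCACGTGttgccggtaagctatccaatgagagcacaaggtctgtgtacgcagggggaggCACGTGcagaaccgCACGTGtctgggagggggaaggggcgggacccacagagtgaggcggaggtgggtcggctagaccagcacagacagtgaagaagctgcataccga

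Inflammatory genes were lower with apigenin for the most part. Of 24 NF-kB and inflammatory genes tested, 13 were lower and 3 higher with apigenin (median -0.86), with 17 lower and 4 higher using only apigenin replicates 2 and 4 and 15 and 5 using only replicates 1 and 3. Tnfaip3, a ubiquitin editor that restrains NF-kB, had levels of 3.36, 3.86, 3.93 and 2.75 with apigenin and 7.68, 7.69, 6.97 and 7.66 with chrysin, against 4.75 ± 0.44 (SD) untreated. The difference of -4.03 ± 0.32 was 16.3-fold more with chrysin (adjusted p = 5.16e-08), in a gene of few reads. Nfkbia, the inhibitor that the pathway induces (-1.42 ± 0.14), the survival gene Birc3 (-2.01 ± 0.21), the chemokine Cxcl2 (-3.89 ± 0.77) and the cytokine Lif (-2.04 ± 0.29) were likewise lower with apigenin. Nfkbiz, a nuclear regulator of the same family, was higher (1.05 ± 0.18). The interleukin gene Il6 had 0 to 7 reads per library and was not tested.

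The prostaglandin genes showed both directions. Of 14 tested, 5 were higher and 5 lower with apigenin (35.7% each, against 24.7% and 26.1% of all genes). It was 7 and 5 using only apigenin replicates 1 and 3 and 4 and 5 using only replicates 2 and 4. Ptgs2, the inducible cyclooxygenase, was 10.30, 10.81, 10.06 and 10.99 with apigenin and 11.76, 11.96, 11.90 and 11.95 with chrysin, both above the untreated mean of 8.37 ± 0.15 (SD), and differed by -1.35 ± 0.16 (adjusted p = 5.72e-06). The prostaglandin E synthase Ptges was higher with apigenin (0.68 ± 0.13) and the cochaperone Ptges3 lower (-0.73 ± 0.09). Hpgd, which inactivates prostaglandins, stood at 3.36, 1.29, 3.52 and 0.97 with apigenin and 5.51 to 6.33 with chrysin, against 7.31 ± 0.13 (SD) untreated (-3.68 ± 0.48, adjusted p = 1.06e-05).

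Of 25 immediate early and AP-1 genes 8 were higher and 5 lower with apigenin and 12 were not called, a share of calls (52%) near that over all genes (50.7%). With only apigenin replicates 1 and 3 it was 7 higher and 12 lower, with only replicates 2 and 4 it was 9 and 5, and 8 were lower without replicate 2. Nr4a2 and Nr4a3, nuclear receptors like Nr4a1, were lower with apigenin, by -2.30 ± 0.13 and -2.90 ± 0.44. Nr4a2 stood at 7.42, 7.60, 7.22 and 7.59 with apigenin and at 9.64, 9.71, 9.77 and 9.89 with chrysin, over an untreated mean of 6.03 ± 0.10 (SD). Jund, a subunit of AP-1, Btg2, an antiproliferative gene, and Myc were higher with apigenin, by 1.39 ± 0.12, 1.76 ± 0.19 and 1.01 ± 0.14, and all 3 were below untreated cells with chrysin.

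**Figure D4:**
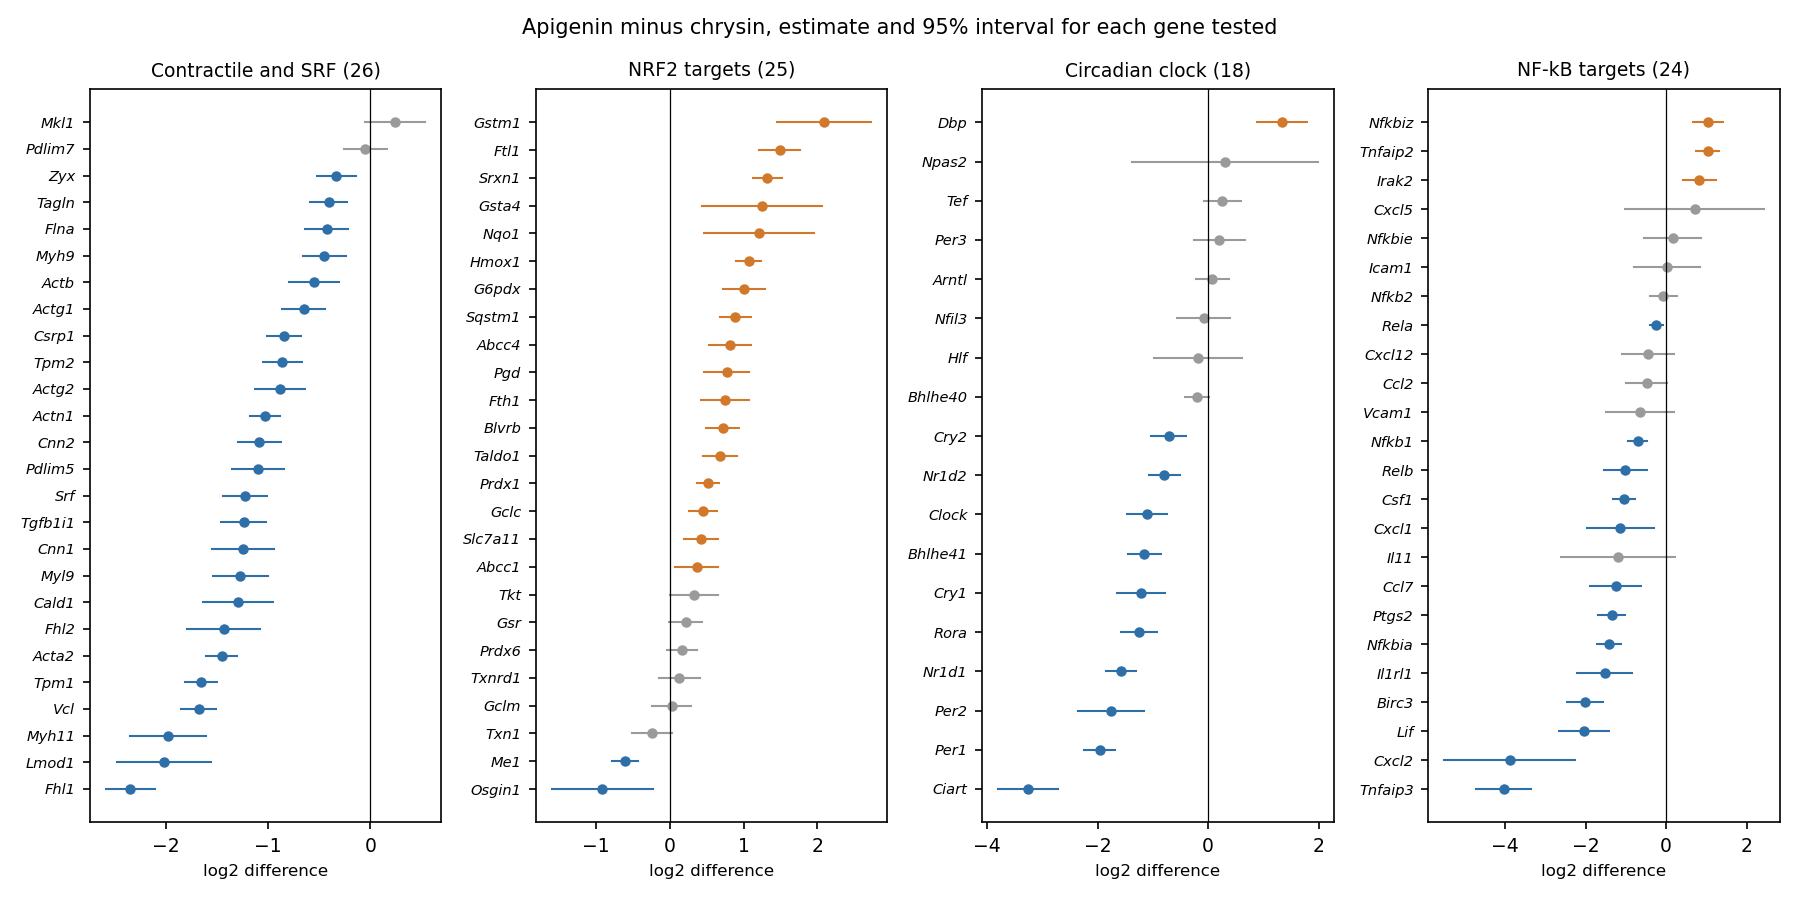
Difference between apigenin and chrysin (horizontal axis, log2) for each tested gene of 4 lists, with the 95% confidence interval of the limma fit as a line. Orange marks genes higher and blue genes lower with apigenin, and grey genes were not called. In the contractile list 24 of 26 genes lie to the left, in the NRF2 list 17 of 25 to the right.

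Genes for making ribosomes were higher with chrysin than with apigenin. Of 27 ribosome biogenesis genes tested, 19 were lower and 2 higher with apigenin (median -0.68). Against untreated cells 20 were higher with chrysin and 3 with apigenin (26.3% and 23% of all genes). List means were 8.69 to 8.82 with apigenin, 9.32 to 9.39 with chrysin and 8.72 to 8.80 untreated. Gnl3, nucleostemin, stood at 9.03, 8.90, 8.79 and 8.88 with apigenin and at 10.17, 10.39, 10.50 and 10.30 with chrysin (-1.44 ± 0.10, adjusted p = 7.65e-09). Ltv1, a factor for the small subunit, the nucleolar protein gene Nop58 and the helicase gene Ddx21 were also lower with apigenin, by -1.50 to -1.21. Myc, a known driver of these genes and itself on the list, was among the 2 higher with apigenin. Its part in the difference was not tested.

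Genes that process messenger RNA and fold or degrade proteins were shifted the same way. Among 29 splicing and polyadenylation factor genes 17 were lower and 2 higher with apigenin (17 and none after median centring), including Cstf3, a cleavage factor (-0.88 ± 0.11), Srsf3 (-0.82 ± 0.12) and Hnrnpd (-0.84 ± 0.14). Of 26 heat shock chaperone genes 18 were lower and 2 higher (median -0.46), with 12 and 4 after quantile normalization (median -0.28). Against untreated cells 18 of the 26 rose with chrysin and 9 with apigenin (26.3% and 23% of all genes). Hspa4 stood at 11.61, 11.53, 11.55 and 11.62 with apigenin and at 12.35, 12.90, 12.80 and 12.67 with chrysin (-1.10 ± 0.10). The mitochondrial chaperone Hspa9 (-0.98 ± 0.09) and the small heat shock gene Cryab (-1.96 ± 0.22) were lower as well, while Hspb8, which works in chaperone-assisted autophagy, was higher (1.10 ± 0.11). Of 31 proteasome subunits 16 were lower and 2 higher (median -0.27), but after quantile normalization 5 were lower and 7 higher, and 14 of the 31 intervals lay within ±0.5.

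Lysosome and autophagy genes were higher with apigenin. Of 38 tested, 20 were higher and 4 lower (median 0.28), and the 4 became 2 without apigenin replicate 1. Psap, the precursor of the saposins, stood at 13.51, 13.61, 13.64 and 13.57 with apigenin and at 12.92, 12.75, 12.63 and 12.77 with chrysin, on both sides of the untreated 13.22 ± 0.07 (SD), a difference of 0.82 ± 0.07 (adjusted p = 1.57e-07). The sialidase Neu1 and the galactosidase Gla were 2.01-fold higher each. Of 32 interferon response and antigen presentation genes, 9 were higher and 2 lower with apigenin (28.1% and 6.25%). The share higher was near that over all genes (24.7%), and the share lower was below it (26.1%). Against untreated cells 15 were lower and 3 higher with apigenin, and 21 lower and 2 higher with chrysin. Tapbp, which loads peptides onto class I molecules, differed by 1.12 ± 0.09 and the regulator Irf1 by -0.63 ± 0.14.

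Lists of growth control held calls in both directions, at shares near those over all genes (24.7% higher and 26.1% lower) or below them, except for the p53 targets. Of 18 G1 cyclins, kinases and inhibitors 4 were higher and 4 lower (22.2% each), with 4 and 6 using only apigenin replicates 1 and 3 and 6 and 5 using only replicates 2 and 4. Of 26 growth factor, receptor and binding protein genes 5 were higher and 7 lower (19.2% and 26.9%). Ccnd1, cyclin D1, had levels of 11.24, 11.77, 11.17 and 11.74 with apigenin and 13.18, 13.28, 13.05 and 13.28 with chrysin, on both sides of the untreated mean of 12.24 ± 0.09 (SD), a difference of -1.72 ± 0.12 (adjusted p = 1.65e-08). Cdkn1a, the inhibitor p21, was higher with apigenin (0.55 ± 0.07), and Rrm2, a subunit of ribonucleotide reductase, was lower (-1.35 ± 0.10). Among 24 p53 targets 10 were higher and 3 lower (41.7% and 12.5%), such as Phlda3, a repressor of AKT (1.35 ± 0.13), and the kinase Plk2 (-0.73 ± 0.08). Mdm2, the ubiquitin ligase of p53, was above untreated cells by 1.24 and 1.20 and differed between the flavones by 0.04 (95% interval -0.22 to 0.31), although it was called higher with only apigenin replicates 2 and 4 (0.29, adjusted p = 0.0192) and not with only 1 and 3 (-0.20, adjusted p = 0.111). Receptor genes Pdgfra (1.41 ± 0.10) and Fgfr1 (0.94 ± 0.08) were higher with apigenin, and the ligand gene Ereg was lower (-1.84 ± 0.21).

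In the BMP pathway more genes were lower than higher with apigenin. Of 17 BMP pathway and ID genes 8 were lower with apigenin and 3 higher (47.1% and 17.6%), with 5 higher without apigenin replicate 4. The BMP transducer Smad1 stood at 8.80, 10.17, 8.56 and 10.13 with apigenin and at 11.19 to 11.36 with chrysin (-1.89 ± 0.33), and the inhibitor Smad6 differed by -1.40 ± 0.13, while Id1 (0.69 ± 0.12) and Id3 (1.04 ± 0.21) were higher with apigenin. Of 19 Wnt pathway genes 4 were lower and 3 higher (21.1% and 15.8%), below the shares over all genes (26.1% and 24.7%). Among them were the secreted inhibitor Dkk2 (-2.19 ± 0.15) and the receptor Fzd1 (1.00 ± 0.17). Of 24 glycolysis and hypoxia genes 7 were lower and 6 higher (29.2% and 25%), near those shares. It was 9 and 6 using only apigenin replicates 1 and 3 and 6 and 7 using only replicates 2 and 4. After quantile normalization it was 6 and 9. The list includes Hk2, hexokinase (-1.36 ± 0.16), and Ndrg1, a hypoxia and stress gene (1.36 ± 0.11). In 20 MAPK feedback genes 5 were lower and 3 higher (25% and 15%), the first near and the second below the shares over all genes. The inhibitor Spry1 differed by -1.91 ± 0.19, but the list turned with the apigenin libraries. With only replicates 1 and 3 it was 11 lower and 2 higher (median -0.48), with only replicates 2 and 4 it was 3 lower and 9 higher (median 0.39), and 5 were higher without replicate 1.

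**Figure D5:**
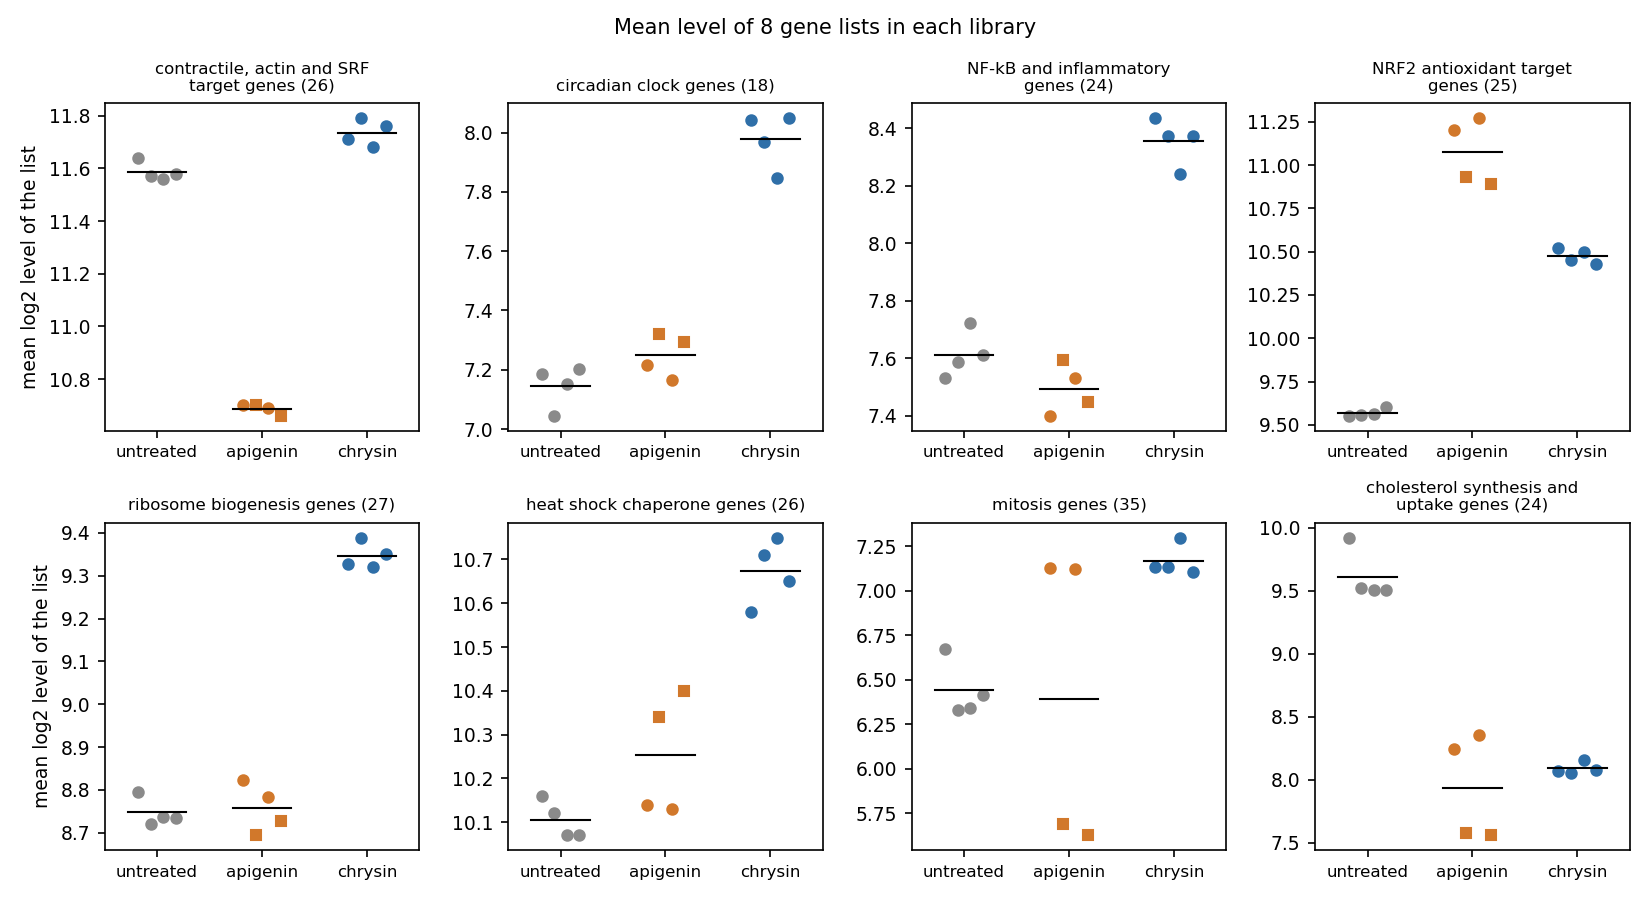
Mean log2 level of 8 gene lists (vertical axis, own range in each panel) in the 12 libraries, with the number of genes in brackets and a bar at each group mean. Orange circles are apigenin replicates 1 and 3, orange squares replicates 2 and 4. The contractile list keeps the 4 apigenin libraries at 10.66 to 10.70, while the mitosis list puts replicates 1 and 3 at 7.13 and replicates 2 and 4 at 5.69 and 5.63.

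Several lists followed the division of the apigenin libraries, so that the answer depended on the pair. Of 35 mitosis genes 15 were lower with apigenin and none higher, but the mean level of the list was 7.13 in both libraries of the first pair, 5.69 and 5.63 in those of the second, and 7.11 to 7.30 with chrysin. With only replicates 1 and 3 there were 5 lower and 2 higher, and with only replicates 2 and 4 there were 29 lower and 1 higher. Leaving out 1 library gave 26 (without apigenin replicate 1), 22 (without 3) and 6 (without 2 or without 4), and 7 to 9 without any 1 chrysin library. Ccnb1, cyclin B, stood at 7.71, 5.69, 7.33 and 5.77 with apigenin and 6.82 to 7.39 with chrysin, so the apigenin values lay on both sides, and the difference of -0.40 ± 0.38 was not called (adjusted p = 0.389), nor was it with only replicates 1 and 3 (0.49, adjusted p = 0.0706), whereas it was with only 2 and 4 (-1.30, adjusted p = 9.41e-05). The spindle factor gene Tpx2 (-1.10 ± 0.26) was called. Plk1, a mitotic kinase, was called over all libraries (-1.12 ± 0.31) and with only replicates 2 and 4 (-1.84), and not with only replicates 1 and 3 (-0.40, adjusted p = 0.152). Of 30 replication genes 9 were lower and 1 higher (30% and 3.33%, against 26.1% and 24.7% of all genes). It was 7 and 4 using only replicates 1 and 3 and 15 and 1 using only replicates 2 and 4.

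Cholesterol synthesis genes were below untreated cells with both flavones, 24 of 24 with apigenin and 23 of 24 with chrysin (23.2% and 26.7% of all genes). Between the flavones 8 were lower and 3 higher with apigenin, with 4 lower and 10 higher using only replicates 1 and 3, and 15 lower and 3 higher using only replicates 2 and 4. The list mean was 8.25 and 8.35 for the first pair, 7.58 and 7.56 for the second, and 8.06 to 8.16 with chrysin. Dhcr7, which makes cholesterol from its last precursor, stood at 8.21, 8.07, 8.29 and 8.19 with apigenin and at 7.05, 7.30, 7.38 and 7.44 with chrysin, against 9.47 ± 0.21 (SD) untreated. The flavone groups did not overlap, and the difference was 0.90 ± 0.13 (adjusted p = 2.45e-05).

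Of 15 fatty acid synthesis and desaturation genes 6 were higher and 1 lower with apigenin than with chrysin (40% and 6.67%). It was 10 and 1 using only replicates 1 and 3 and 3 and 3 using only replicates 2 and 4. Against untreated cells 13 were lower with apigenin and 11 with chrysin (23.2% and 26.7% of all genes). Acaca, which makes malonyl-CoA, differed by 0.91 ± 0.18. Of 28 ER stress and ATF4 target genes 8 were lower and 6 higher (28.6% and 21.4%), near the shares over all genes (26.1% and 24.7%). It was 15 and 6 using only replicates 1 and 3 and 7 and 9 using only replicates 2 and 4. Trib3, a stress kinase relative, was 7.34, 8.86, 7.61 and 8.79 with apigenin against 6.47 to 7.20 with chrysin (1.37 ± 0.30), Chac1, which degrades glutathione, differed by 1.39 ± 0.29 and Ddit3, the factor CHOP, by 0.88 ± 0.20. Calr, an ER chaperone, was lower (-0.51 ± 0.08). Nuclear genes of oxidative phosphorylation stayed closest together, with 23 of 34 intervals within ±0.5 (19.6% of all genes). There 5 were lower and 1 higher (14.7% and 2.94%), below the shares over all genes. It was 3 and 4 using only replicates 1 and 3 and 7 and 1 using only replicates 2 and 4. After quantile normalization it was 2 and 4. The 5 became 2 or 3 without apigenin replicate 2 or 4 or without chrysin replicate 2, 3 or 4.

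Some genes moved far from the untreated level while the flavones stayed within ±0.5 of each other. The 10 abundant genes with the largest such joint change were Gclm, Fnip2 and Procr, above untreated cells, and Zfp521, Nedd9, Ssc5d, Synpo, Maged2, Dkk3 and Pdgfrl, below them. Fnip2, a partner of folliculin in nutrient sensing, stood at 10.89 to 11.13 with apigenin and at 10.72 to 11.23 with chrysin, against 9.15 ± 0.15 (SD) untreated, and the 95% interval of the difference was -0.31 to 0.16. Nedd9, a scaffold of focal adhesions, was 7.05 to 7.66 and 7.11 to 7.73 against 9.32 ± 0.21 (SD), with an interval of -0.48 to 0.19. Groups of all 10 genes overlapped. Over the pairs of apigenin libraries, 3 of the 10 did not stay together. The transcription factor gene Zfp521 was called higher with apigenin using only replicates 1 and 3 (0.33, adjusted p = 0.029) and lower using only replicates 2 and 4 (-0.40, adjusted p = 0.00904). The actin-associated Synpo turned likewise (0.31, adjusted p = 0.0253, and -0.40, adjusted p = 0.00474). Dkk3, a secreted protein, was called higher using only replicates 1 and 3 (0.47, adjusted p = 0.000284) and not using only replicates 2 and 4 (-0.11, adjusted p = 0.35).

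Other genes described above stayed called with either pair of apigenin libraries, but for some the size of the difference changed with the pair. The genes given here are examples. With replicates 1 and 3 and then with replicates 2 and 4, the difference was -3.05 and -1.02 for Plau, -2.62 and -1.15 for Smad1, -5.45 and -2.33 for Cxcl2 and -1.42 and -0.40 for Slc30a1, all nearer to chrysin in the second pair. Among genes higher with apigenin it was 1.99 and 0.42 for Nqo1, 1.48 and 0.60 for Id3, 1.38 and 0.62 for Fzd1, 1.24 and 0.58 for Acaca and 1.05 and 0.40 for Cyr61. The second pair was further from chrysin for Ankrd1 (-1.71 and -3.62), Tpx2 (-0.48 and -1.73), Trib3 (0.70 and 2.05), Chac1 (0.88 and 1.91) and Ddit3 (0.45 and 1.30). It was also further for Itgb3 (1.6 and 2.95) and Hpgd (-2.53 and -4.84). It was nearer to chrysin for Gstm1 (2.745 and 1.44), Aldh1a7 (-3.46 and -1.84), Cemip (-2.985 and -1.69), Nr4a3 (-3.85 and -1.96) and Cryab (-2.49 and -1.44).

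The labelled cell type was checked against its markers. All 13 fibroblast markers were tested, and Vim, vimentin, and Col1a1 were among the most abundant genes, at 14.77 to 15.57 and 13.91 to 14.39 in the flavone libraries. Between the flavones 2 markers were higher and 3 lower with apigenin, with 7 higher and 3 lower using only replicates 1 and 3 and 1 higher and 6 lower using only replicates 2 and 4, and 4 higher and 1 lower after quantile normalization. Vim was lower (-0.66 ± 0.07), but its direction turned after quantile normalization (0.18, adjusted p = 0.221), and Thy1, a surface glycoprotein, was lower by -0.45 ± 0.07 (-0.18, adjusted p = 0.0541, after that normalization). The summed level of the 13 markers was 16.19 to 16.48 with apigenin, 16.46 to 16.68 with chrysin and 17.21 to 17.31 untreated. In bulk samples, fewer cells of a type and less RNA per cell cannot be told apart.

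Markers of other cells were mostly low. Of 9 macrophage and leukocyte markers 4 were higher with apigenin and none lower, and their summed level was 10.63 to 10.99 with apigenin, 9.84 to 10.05 with chrysin and 10.07 to 10.28 untreated. These were the lysosomal glycoprotein Cd68 (1.25 ± 0.11), the lipopolysaccharide coreceptor Cd14 (4.22 ± 0.71, a gene with few reads, at 0 in 1 chrysin library), lysozyme Lyz2 (0.58 ± 0.12) and the pan-leukocyte marker Ptprc (1.24 ± 0.43, adjusted p = 0.0237), which was not called without apigenin replicate 1 or chrysin replicate 2, nor with only apigenin replicates 2 and 4 (0.80, adjusted p = 0.218). The lysosomal gene list moved in the same direction, and the part of such cells in it was not tested. Of 8 pericyte and smooth muscle markers 6 were tested and 4 were lower with apigenin, Myh11 and Lmod1 of the contractile list among them, with a summed level of 9.86 to 10.66 with apigenin, 11.04 to 11.39 with chrysin and 11.08 to 11.17 untreated. The part of such cells in the contractile difference was not tested. Of 8 markers each, 3 endothelial, 1 epithelial, 5 adipocyte, 6 neural, 2 skeletal muscle and 5 cartilage and bone markers passed the minimum. Between the flavones 1 endothelial, 2 adipocyte and 1 cartilage and bone marker were higher with apigenin, and 1, 2 and 2 were lower. Of the cartilage and bone markers 2 were higher and 1 lower using only apigenin replicates 1 and 3, and 1 and 3 using only replicates 2 and 4. The epithelial marker, 3 neural markers and 1 skeletal muscle marker were lower.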

How the data were processed

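RNA was sequenced from 12 samples of mouse embryonic fibroblasts, 4 per group, with a stranded mRNA kit per the labels' protocols. The tools named in the submitters' processing notes are STAR, HTSeq, DESeq2, cutadapt and FastQC, with build mm9, and neither versions nor the annotation are given. The authors deposited 1 log2 value per gene and sample, which the values show to be log2 of a normalized read count plus 1. Undoing that step gave whole reads (99.966% to 100% of values under 500 reads lay within 0.05 of a whole number), from which the depths were taken. The 27 gene names that had become calendar dates were restored through RefSeq gene IDs.

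Groups came from the titles. The 12198 genes with a mean of at least 10 were fitted in limma 3.58.1 (R 4.3.3) with 1 mean per group over all 12 samples, with trended, robust variances. All p-values are two-sided limma p-values, adjusted by Benjamini-Hochberg over the genes tested, and calls use 0.05. On this scale folds of low genes are understated. The script was tested on simulated data. The members and the gene lists, several of which share genes, were chosen with earlier results of these data known, so lists carry no test. The text names the 12 largest differences each way (called, groups not overlapping, level at or above the median of 7.91), the 10 alike genes with the largest joint change, up to 4 genes of smallest p per list, and Cyp1a1, Cyp1b1, Cdkn1a, Hmox1, Ccnb1, Col1a1, Acta2, Ptgs2, Mt1 and Nr1d1, without predicted genes, pseudogenes and Y-linked or X-inactivation genes. Other members of the lists that are named were chosen after their values were seen. Some genes selected in this way are not reported here. Promoters came from RefSeq (GRCm38.p6, 32851 promoters of 27025 genes). The alternatives tried were a replicate block, other scalings (TMM factors, median centring, quantile normalization), no filter and a minimum of 50, pseudocounts of 0.25 and 4, limma-voom on the recovered reads, no trend or robust estimation, array weights, the 8 flavone samples alone, each pair of apigenin libraries, a threshold of 0.01 and leaving out each library.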

Additional observations from a re-analysis of the deposited data

Results flagged for a closer look

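In 162 groups of 4 libraries (named genes and list means, in each group), 1 library lay apart from the other 3 by most of the group's range in 7 cases, where chance gives about 1 in 20. Mt1 stood at 11.78 in chrysin replicate 3 and at 11.29 to 11.37 in the other chrysin libraries. The mean level of the mitosis list was 7.30 in chrysin replicate 3 and 7.11 to 7.14 in the others, that of the collagens and structural matrix list was 11.18 in the same library and 11.27 to 11.29 in the others, and Dkk3 was 9.18 there and 9.30 to 9.32 in the others. In chrysin replicate 2, Pdgfrl was 7.62 against 7.99 to 8.04, and Cdkn1a was 11.98 against 12.08 to 12.10. The mean of the contractile list was 10.66 in apigenin replicate 4 and 10.69 to 10.70 in the other apigenin libraries, a gap much smaller than the difference of about 1 from chrysin.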

How the results depend on the processing

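Over the 27 alternatives, the counts of genes higher and lower with apigenin stayed within 1.5 times those reported. Exactly 1 summary count did not: with a minimum mean of 50, 648 genes were higher by at least 1, since low genes with large differences were then left out. Leaving out 1 library at a time gave 2626 to 2990 genes higher and 2812 to 3170 lower, 956 to 1186 higher and 783 to 874 lower by at least 1, and 2043 to 2391 intervals within ±0.5. Limma-voom on the recovered reads called 5945 genes, the fit of the 8 flavone samples alone 5380. The labels do not say whether replicate numbers pair the samples. Deviations of apigenin and chrysin libraries with the same number correlated at -0.096, -0.015, 0.048 and 0.049. These values cannot decide it, since the apigenin deviations also hold the division of those libraries. A fit with the replicate block called 2923 genes higher and 3114 lower (1051 and 840 by at least 1, and 2306 intervals within ±0.5).

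Of 217 genes selected by the rule or afterwards, 193 were called, 169 of them in every setting that kept them. Directions turned for Zfp521 (0.33) and Synpo (0.31) with only apigenin replicates 1 and 3, and for Vim (0.18), Yap1 (0.21) and Atp5b (0.10) after quantile normalization, and the cause was not tested. List medians moved by more than 1 SD in at least 1 setting for 34 of 39 lists. With array weights, which let libraries count unequally, 28 mitosis genes and 13 cholesterol genes were lower, and the MAPK feedback list turned to 6 higher and 4 lower and the ER stress list to 8 and 7. Depth limits the genes of few reads, such as Ciart, Tnfaip3, Cxcl2, Hpgd, Gstt1 and Cd14. The largest standard errors given were those of Prl2c2 and Slc5a7, which differed between the pairs of apigenin libraries.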
